A study of Chlamydomonas reinhardtii with 12 samples.

Results

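A set of 10 genes of *Chlamydomonas reinhardtii*, a unicellular green alga, was examined here at the transcript level. They encode enzymes, enzyme subunits and an enzyme activator of the path from glutamate to chlorophyll *a* and chlorophyll *b*. They were taken by gene identifier from the deposited count table, 10 of its 17741 genes, and not by a cut on measured values. The list was, however, chosen with earlier results of these data known. All 10 passed the filter on low counts, which kept 14251 genes. They are *HEMA* (Cre07.g342150, glutamyl-tRNA reductase), *GSA1* (Cre03.g158000, glutamate-1-semialdehyde aminotransferase), the Mg-chelatase subunits *CHLH1* (Cre07.g325500), *CHLD* (Cre05.g242000) and *CHLI1* (Cre06.g306300), the Mg-chelatase activator *GUN4* (Cre05.g246800), *CHLM* (Cre12.g498550, Mg-protoporphyrin IX methyltransferase), *POR1* (Cre01.g015350, protochlorophyllide oxidoreductase), *CHLG* (Cre06.g294750, chlorophyll synthase) and *CAO1* (Cre01.g043350, chlorophyllide *a* oxygenase).

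Chlorophyll and heme share the first part of the tetrapyrrole pathway, which starts when glutamyl-tRNA reductase and the aminotransferase turn tRNA-bound glutamate into 5-aminolevulinate. The pathway branches at protoporphyrin IX, where Mg-chelatase, an ATP-driven enzyme of the H, D and I subunits helped by GUN4, inserts magnesium for chlorophyll and ferrochelatase inserts iron for heme. Several intermediates, protochlorophyllide among them, produce singlet oxygen when they absorb light without being used, and the end product is needed by the light-harvesting proteins that bind it.

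The libraries were poly(A)-selected, strand-specific RNA-seq libraries from bulk cultures, 3 from each of 4 groups. The WT was strain CC-125. The *phot* strain carries a PHOT KO, loss of the blue-light receptor phototropin encoded by *PHOT1* (Cre03.g199000), and is 1 mutant strain, so other differences between both strains and the loss of *PHOT1* cannot be told apart here. Cultures stood in Sueoka's high salt medium, which offers no acetate, at low light (LL, 5 µmol photons m-2 s-1), before exposure to high light (HL, 300 µmol photons m-2 s-1). LL samples were taken before the shift and HL samples 60 min after it, so light and the hour in between cannot be told apart.

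Each library held between 27136674 and 33906264 gene counts. *PHOT1* had 6074 to 8263 counts in the 6 WT libraries and 115 to 181 in the 6 *phot* libraries, as labelled. Levels are given as CPM, counts scaled to library size, after TMM scaling, which corrects for differences in RNA composition between libraries, and every mean ± SD is over n = 3 libraries, here called A, B and C. No member had fewer than 442 counts in any library. CPM values are not divided by transcript length, so levels are compared between groups of libraries and not between genes. In bulk cultures, a lower level in every cell and the same level in fewer cells cannot be told apart.

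The summed level of the 10 genes was 1691 ± 38.9 CPM in WT LL and 1189 ± 23.7 CPM in WT HL, against 3233 ± 420.3 CPM in *phot* LL and 3819 ± 55.1 CPM in *phot* HL. The sum was thus lower after HL in WT and not in *phot*, and the *phot* cultures stood above WT in LL already. Scaled to library totals alone, the WT sums were 1138 to 1463 CPM in LL and 1058 to 1210.1 CPM in HL and overlapped, and the *phot* sums of 3359 to 3992 CPM and 4284.7 to 4788 CPM lay above them. The members did not move as a block: *GUN4*, *POR1* and *GSA1* fell in WT, *CHLM* rose in WT, and *CHLD* and *POR1* rose in *phot*. *HEMA* and *CHLH1* did not pass the main test of the light response in either genotype. In WT, the results of *HEMA*, *CHLH1*, *CHLD* and *CHLM* depended on the settings, and those of *CHLG* and *CAO1* on the scaling, as given below. The plot of levels by group shows each library.

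**Figure D1:**
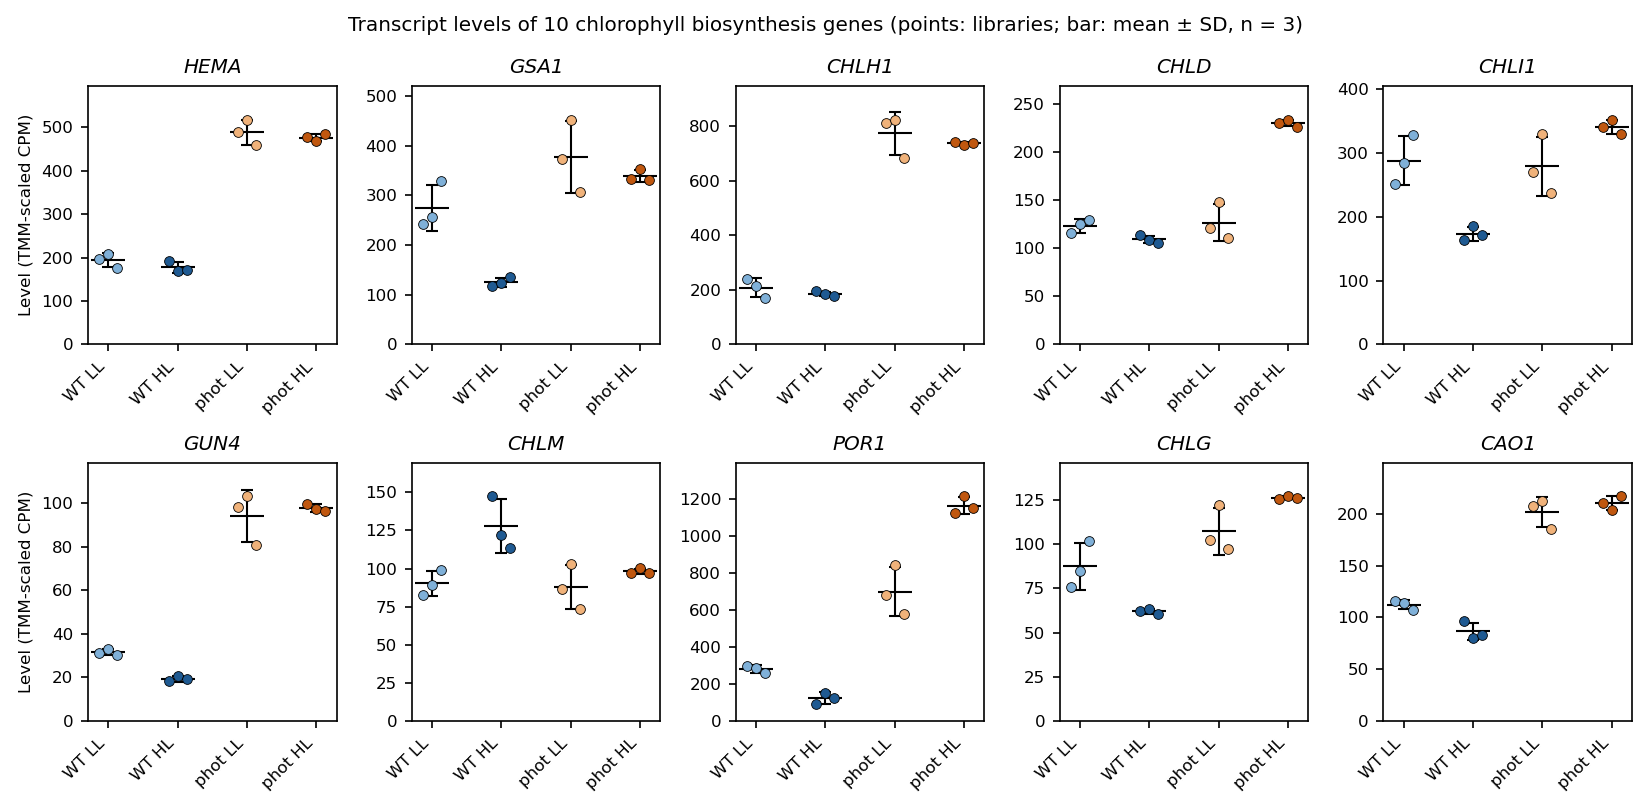
TMM-scaled CPM of the 10 chlorophyll biosynthesis genes (vertical axes, each from 0) in the 4 groups, with 1 point per library and a bar for the mean ± SD of n = 3. *POR1* runs from 123 ± 30.4 CPM in WT HL to 1163 ± 46.5 CPM in *phot* HL, and *CHLM* is highest in WT HL.

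HL compared with LL in WT asks how the wild type responds to the light shift. Here 7 of the 10 members passed edgeR's quasi-likelihood test at a Benjamini-Hochberg adjusted p below 0.05, with 6 lower and 1 higher, while 73.9% of all tested genes passed in this comparison (35.1% lower and 38.9% higher). The members' median log2 fold change was -0.44, against 0.05 over all tested genes. The lower members were *GSA1*, *CHLI1*, *GUN4*, *POR1*, *CHLG* and *CAO1*, and the higher one was *CHLM*. The HL and LL libraries did not overlap for 8 members, *CHLD* in addition, where 73.9% of all genes passed the test and 73.2% had no overlap. That holds after TMM scaling. Scaled to library totals alone, the HL and LL libraries of *CHLD*, *GUN4*, *CHLG* and *CAO1* overlapped.

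The same light shift in *phot* asks how the cells respond without phototropin. Only *CHLD* and *POR1* passed, 2 of 10 and both higher, where 58.9% of all genes passed (31.2% higher and 27.7% lower). The members' median was 0.11, against 0.03 over all genes. *CHLI1* and *CHLG* were also higher in each HL library than in any LL library, with log2 fold changes of 0.29 (95% interval 0.01 to 0.57) and 0.24 (-0.02 to 0.49), and missed the adjusted threshold. In all, 4 members had no overlap, where 72.6% of all genes had none. Both passed when *phot* LL library B, the highest of its group for all 10 members, was left out, at 0.43 and 0.34, which raised the count to 4. *CHLI1* also passed without WT LL library C, at 0.28, and with library totals in place of TMM, at 0.31.

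Between the genotypes, the mutant was compared with WT at each light level. In LL, 7 of 10 members passed, all higher in *phot*, where 72.3% of all genes passed (44.3% higher and 28% lower) and the medians were 0.65 for the members and 0.22 for all genes. In HL, all 10 passed, 9 higher and *CHLM* lower, where 73.5% of all genes passed (38.1% higher and 35.4% lower) and the medians were 1.35 and 0.05. The libraries of the genotypes were fully separated for all 10 members in HL, where 75.7% of all genes had no overlap. In LL they were separated for 5, namely *HEMA*, *CHLH1*, *GUN4*, *POR1* and *CAO1*, a smaller share than the 78.5% of all genes with no overlap. The 2 light comparisons and the 2 genotype comparisons draw on the same 4 groups and are not independent of each other. The plot of fold changes with their intervals shows all 5 comparisons.

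**Figure D2:**
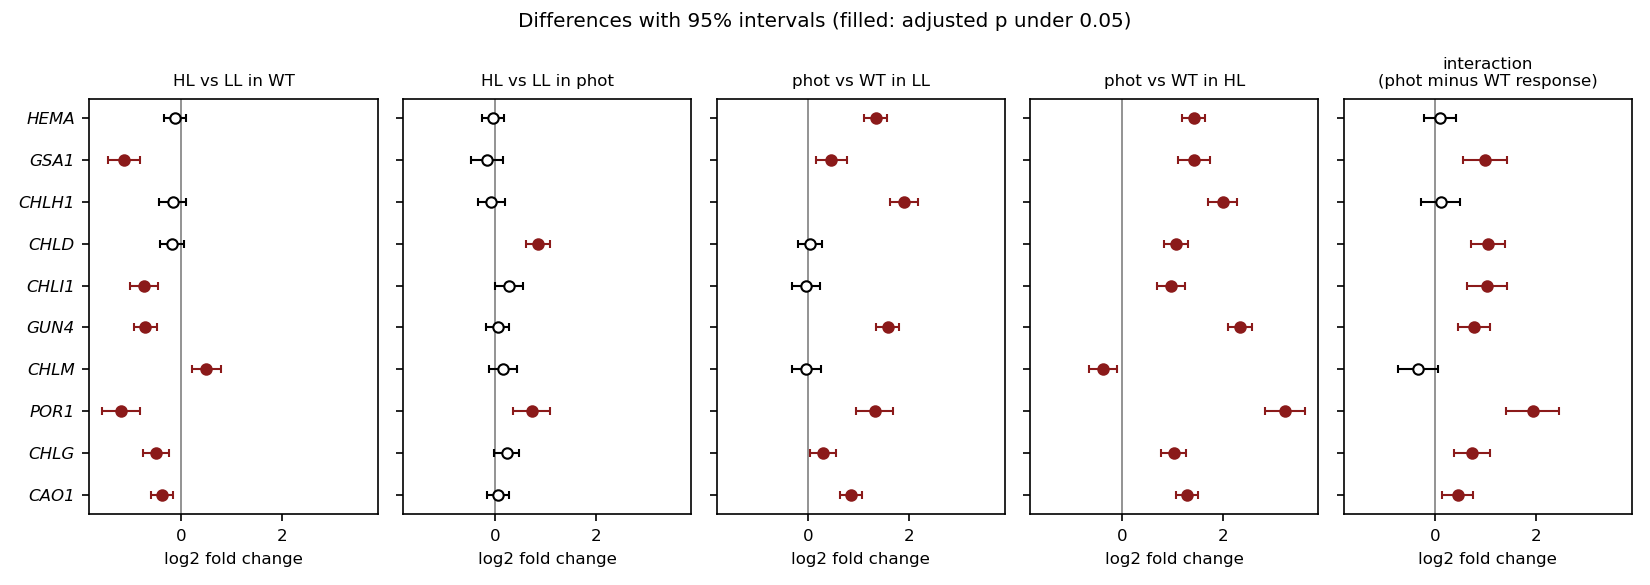
Log2 fold changes (horizontal axes) of the 10 genes with 95% intervals in the 4 pairwise comparisons and, in the right panel, the *phot* response to light after subtraction of the WT response. Filled points passed at an adjusted p below 0.05, and in *phot* vs WT in HL all 10 points are filled, with *CHLM* alone to the left of 0.

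*HEMA* encodes the enzyme known from plants as the main control point of 5-aminolevulinate supply. Its level in WT was 198, 207 and 176 CPM in LL libraries A, B and C and 193, 169 and 171 CPM in HL, and the ranges overlapped. In *phot* it was 489, 518 and 459 CPM in LL and 477, 468 and 484 CPM in HL. Every *phot* library stood above every WT library, and the change with light did not pass the main test in either genotype. In WT it passed, as lower in HL, under 11 of 21 other settings. The log2 fold change on HL was -0.13 (95% interval -0.35 to 0.09) in WT and -0.04 (-0.26 to 0.18) in *phot*. *HEMA* was 2.52-fold higher in *phot* in LL (log2 1.33, SE 0.10, adjusted p = 5.02e-08 by edgeR's quasi-likelihood test) and 2.68-fold higher in HL (log2 1.42, SE 0.10, adjusted p = 2.01e-08).

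*GSA1*, the enzyme of the next step, behaved differently in WT. Its WT level was 242, 256 and 328 CPM in LL and 117, 125 and 135 CPM in HL, with no overlap, a fall of 1.13 on the log2 scale to 0.456 of the LL level (SE 0.15, adjusted p = 6.28e-06 by edgeR's quasi-likelihood test). In *phot* the libraries gave 373, 453 and 307 CPM in LL and 333, 353 and 332 CPM in HL, which overlapped. In HL *GSA1* was 2.70-fold higher in *phot* than in WT (adjusted p = 6.54e-07 by edgeR's quasi-likelihood test). In LL the groups overlapped, and the log2 difference of 0.46 (SE 0.15, adjusted p = 0.0114, edgeR's quasi-likelihood test) passed under only 9 of the 21 other settings tried. It missed the threshold, at 0.27 to 0.37, without WT LL library A, without *phot* LL library A or B, without WT HL library A or B and without any 1 of the *phot* HL libraries.

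The H subunit of Mg-chelatase binds the porphyrin. *CHLH1* stood at 239.8, 213 and 170.2 CPM in WT LL and 194, 183 and 177 CPM in WT HL, overlapping ranges. The *phot* libraries held 812, 823 and 682 CPM in LL and 741, 731 and 737 CPM in HL. The genotypes were separated at both light levels, as for *HEMA*, and the change with light did not pass the main test. In WT that change passed, as lower in HL, under 12 of 21 other settings. *CHLH1* was 3.72-fold higher in *phot* in LL (log2 1.89, SE 0.13, adjusted p = 1.41e-08 by edgeR's quasi-likelihood test) and 3.99-fold higher in HL (log2 2.00, SE 0.13, adjusted p = 6.5e-09). On HL its log2 fold change was -0.17 (-0.44 to 0.10) in WT and -0.07 (-0.34 to 0.20) in *phot*.

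*CHLD* encodes the subunit that joins the motor part of the chelatase to the H subunit. Its levels lay close together in 3 of the groups. In WT they were 115, 125 and 129 CPM in LL and 113, 109 and 106 CPM in HL, every HL library below every LL library. This fall (log2 -0.18) missed the threshold in the main fit and passed under 11 of 21 other settings. In *phot* LL the levels were 122, 148 and 110.4 CPM. In *phot* HL they were 231, 234 and 227 CPM, above all 9 other libraries. The rise in *phot* was 1.82-fold (log2 0.86, SE 0.11, adjusted p = 1.2e-05 by edgeR's quasi-likelihood test), and in HL *CHLD* was 2.11-fold higher in *phot* than in WT (adjusted p = 6.33e-07). In LL the genotypes overlapped, at a log2 difference of 0.04 (95% interval -0.20 to 0.27).

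*CHLI1*, the ATPase subunit of the same enzyme, fell in WT and did not pass in *phot*. WT libraries held 251, 285 and 328 CPM in LL and 163, 185 and 172 CPM in HL (log2 -0.73, SE 0.13, adjusted p = 0.000141 by edgeR's quasi-likelihood test). In *phot* they held 269.9, 329 and 238 CPM in LL and 342, 352 and 329.9 CPM in HL. The genotypes overlapped in LL (log2 difference -0.05, 95% interval -0.32 to 0.23) and were separated in HL, where *phot* was 1.97-fold higher (adjusted p = 9.74e-06, edgeR's quasi-likelihood test).

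*GUN4*, which binds porphyrins and raises the activity of Mg-chelatase, showed both differences. It stood at 31.4, 33.0 and 30.2 CPM in WT LL and 18.2, 20.7 and 19.0 CPM in WT HL, all 3 HL libraries below all 3 LL libraries (log2 -0.71, SE 0.11, adjusted p = 2.97e-05 by edgeR's quasi-likelihood test). In *phot* it stood at 98.2, 103 and 80.7 CPM in LL and 99.7, 97.2 and 96.3 CPM in HL, overlapping, with a log2 fold change of 0.06 (-0.16 to 0.28). It was 2.98-fold higher in *phot* in LL (adjusted p = 1.15e-08, edgeR's quasi-likelihood test) and 5.06-fold higher in HL (adjusted p = 2.08e-10), after *POR1* the largest difference among the members.

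Because the chelatase needs its subunits together, the ratios of their raw counts were taken within each library, which no scaling of libraries can change. They are given as a description, without a test. *CHLH1* to *CHLD* was 1.70 ± 0.379 (LL) and 1.69 ± 0.0196 (HL) in WT, against 6.14 ± 0.554 (LL) and 3.20 ± 0.0633 (HL) in *phot*. The 3 *phot* LL libraries (5.57 to 6.68) lay above all others, and the 3 *phot* HL libraries (3.13 to 3.25) lay above all WT libraries (1.32 to 2.08 in LL and 1.67 to 1.71 in HL).

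*CHLI1* to *CHLD* moved with light and little with genotype. The ratio was 2.33 ± 0.188 in WT LL and 2.20 ± 0.0393 in *phot* LL, against 1.59 ± 0.136 in WT HL and 1.48 ± 0.026 in *phot* HL. In both genotypes every HL library was below every LL library, in WT with lower *CHLI1* and in *phot* with higher *CHLD*. *GUN4* to *CHLH1* ran from 0.105 ± 0.00995 in WT HL to 0.154 ± 0.0232 in WT LL, with *phot* at 0.122 ± 0.0036 in LL and 0.133 ± 0.00199 in HL. Every HL library was below every LL library in WT and above every LL library in *phot*.

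**Figure D3:**
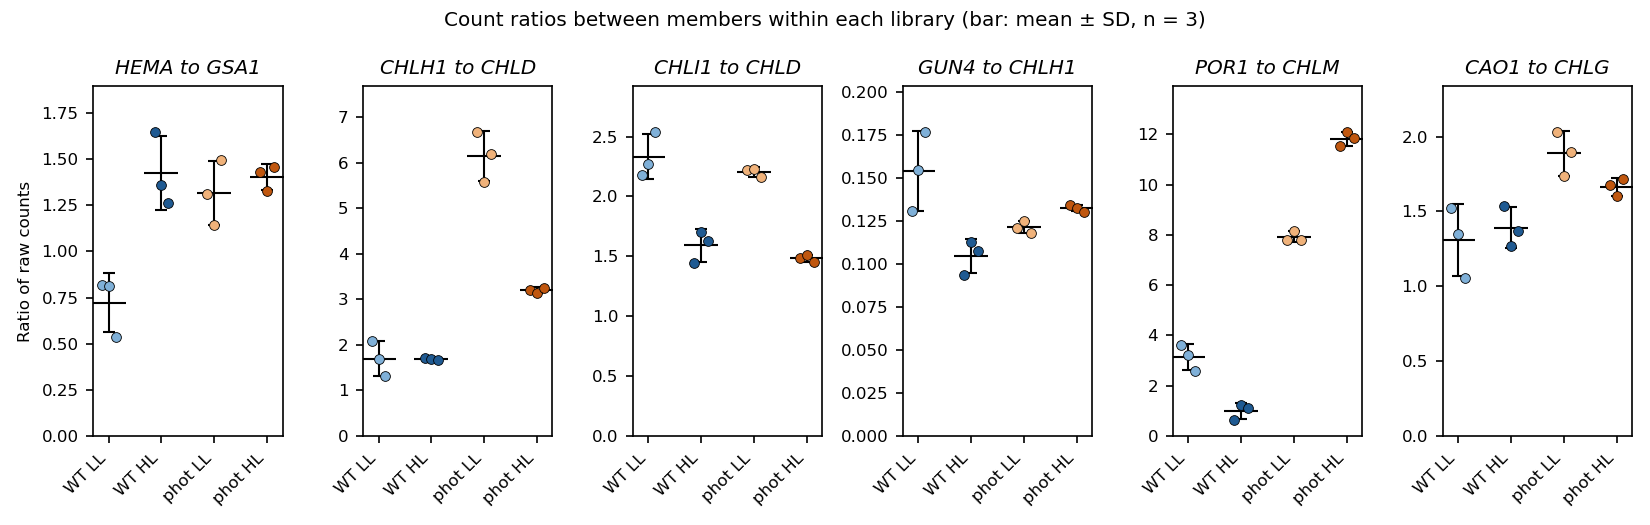
Ratios of raw counts between members within each library (vertical axes, each from 0) in the 4 groups, with 1 point per library and a bar for the mean ± SD of n = 3. *CHLH1* to *CHLD* stands highest in *phot* LL at 6.14 ± 0.554, and *POR1* to *CHLM* runs from 0.994 ± 0.33 in WT HL to 11.8 ± 0.281 in *phot* HL.

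*CHLM*, which methylates the Mg-porphyrin made by the chelatase, was the 1 member that was higher on HL in WT and lower in *phot* HL than in WT HL. Its levels were 82.4, 88.9 and 99.2 CPM in WT LL and 147, 122 and 114 CPM in WT HL, the latter above all 3 LL libraries (log2 0.50, SE 0.13, adjusted p = 0.0032 by edgeR's quasi-likelihood test). In *phot* they were 86.8, 103 and 73.8 CPM in LL and 97.3, 100.3 and 97.2 CPM in HL, overlapping ranges. In HL *phot* was lower, at 0.77 of the WT level (log2 -0.38, adjusted p = 0.0182, edgeR's quasi-likelihood test), and in LL the difference was -0.04 (-0.32 to 0.24). Both calls missed the threshold without library A of WT HL, the highest for *CHLM*. Without it the log2 fold change on HL in WT was 0.20 and the difference in HL was -0.29. Without both it and WT LL library C, the rise in WT was 0.41 and passed. The difference in HL was then -0.26 and missed. With upper-quartile factors the rise was 0.27 and the difference -0.20, both short of the threshold. With library totals the rise was 0.77 and passed, and the difference was -0.05 and missed. The rise in WT also missed the threshold without *phot* LL library A and without each *phot* HL library, each time at 0.32. These *phot* libraries are not part of the WT comparison. TMM scales to 1 reference library, which changed in these fits from WT HL A to *phot* LL B.

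*POR1* encodes the light-dependent enzyme that reduces protochlorophyllide, the step at which light itself is a substrate. In WT it fell from 298, 288 and 257 CPM in LL to 91.6, 152 and 126 CPM in HL, to 0.439 of the LL level (log2 -1.19, SE 0.17, adjusted p = 1.94e-05 by edgeR's quasi-likelihood test). In *phot* it rose from 678, 840.2 and 576 CPM in LL to 1124, 1214 and 1151 CPM in HL, 1.67-fold (log2 0.74, SE 0.17, adjusted p = 0.0019, edgeR's quasi-likelihood test). The 4 groups did not overlap, in the order WT HL, WT LL, *phot* LL and *phot* HL. *POR1* was 2.49-fold higher in *phot* in LL (adjusted p = 8.86e-06 by edgeR's quasi-likelihood test) and 9.43-fold higher in HL (log2 3.24, SE 0.18, adjusted p = 1.53e-09), more than 97.3% of all tested genes in that comparison. The within-library ratio of *POR1* to *CHLM* counts separated the groups in the same order, at 0.994 ± 0.33, 3.15 ± 0.52, 7.93 ± 0.207 and 11.8 ± 0.281.

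The last steps attach the phytol tail and make chlorophyll *b*. *CHLG*, for the enzyme that adds the tail, stood at 75.9, 84.6 and 102 CPM in WT LL and 62.4, 63.3 and 60.6 CPM in WT HL, without overlap (log2 -0.49, SE 0.12, adjusted p = 0.00164 by edgeR's quasi-likelihood test). In *phot* it stood at 102, 122 and 97.5 CPM in LL and 125, 127 and 126 CPM in HL. In HL *phot* was 2.03-fold higher than WT (adjusted p = 2.17e-06, edgeR's quasi-likelihood test). In LL the genotypes met at 102 and 97.5 CPM, and the log2 difference of 0.30 (SE 0.12, adjusted p = 0.035, edgeR's quasi-likelihood test) passed under 7 of the 21 other settings. It missed the threshold, at 0.11 to 0.27, without any 1 library other than WT LL C and WT HL C.

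*CAO1*, for the oxygenase that turns chlorophyllide *a* into *b*, had 116, 114 and 107 CPM in WT LL and 96.1, 80.2 and 83.2 CPM in WT HL, again without overlap but with a smaller fall (log2 -0.38, SE 0.10, adjusted p = 0.00358 by edgeR's quasi-likelihood test). In *phot* it had 208, 212 and 185 CPM in LL and 210.0, 204 and 217 CPM in HL, which overlapped. The mutant was 1.79-fold higher in LL (adjusted p = 3.73e-06, edgeR's quasi-likelihood test) and 2.43-fold higher in HL (adjusted p = 4.64e-08). *CAO1* to *CHLG* counts within a library were 1.31 ± 0.239 (WT) and 1.89 ± 0.149 (*phot*) under LL, and 1.39 ± 0.137 (WT) and 1.67 ± 0.0586 (*phot*) under HL, with every *phot* library above every WT library. *HEMA* to *GSA1*, at the other end of the pathway, had a ratio of 0.722 ± 0.159 in WT LL and between 1.32 ± 0.176 and 1.42 ± 0.201 in the other 3 groups.

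Whether the light response itself differed between the genotypes was tested by the interaction, the log2 fold change on HL in *phot* minus that in WT. It passed for 7 of 10 members, all more positive in *phot*, where 51.8% of all genes passed (23.5% more positive and 28.3% more negative). The members' median was 0.75, against -0.09 over all genes. *POR1* had the largest difference (1.92, SE 0.24, adjusted p = 1.71e-05 by edgeR's quasi-likelihood test), with a fall in WT and a rise in *phot*. *CHLD* followed (1.04, adjusted p = 7.74e-05, edgeR's quasi-likelihood test), with the rise in *phot* alone past its threshold. For *CHLI1* (1.02), *GSA1* (0.98), *GUN4* (0.76), *CHLG* (0.73) and *CAO1* (0.44, adjusted p = 0.0187, edgeR's quasi-likelihood test), a fall in WT stood against a change in *phot* that did not pass. Without WT HL library C the *CAO1* difference was 0.41 and missed the threshold (adjusted p = 0.0503, edgeR's quasi-likelihood test), and with library totals it was 0.19. No difference in response was detected for *HEMA* (0.09, 95% interval -0.22 to 0.40), *CHLH1* (0.10, -0.28 to 0.48) or *CHLM* (-0.34, -0.74 to 0.06), and these intervals leave room for differences of up to 0.40, 0.48 and -0.74.

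**Figure D4:**
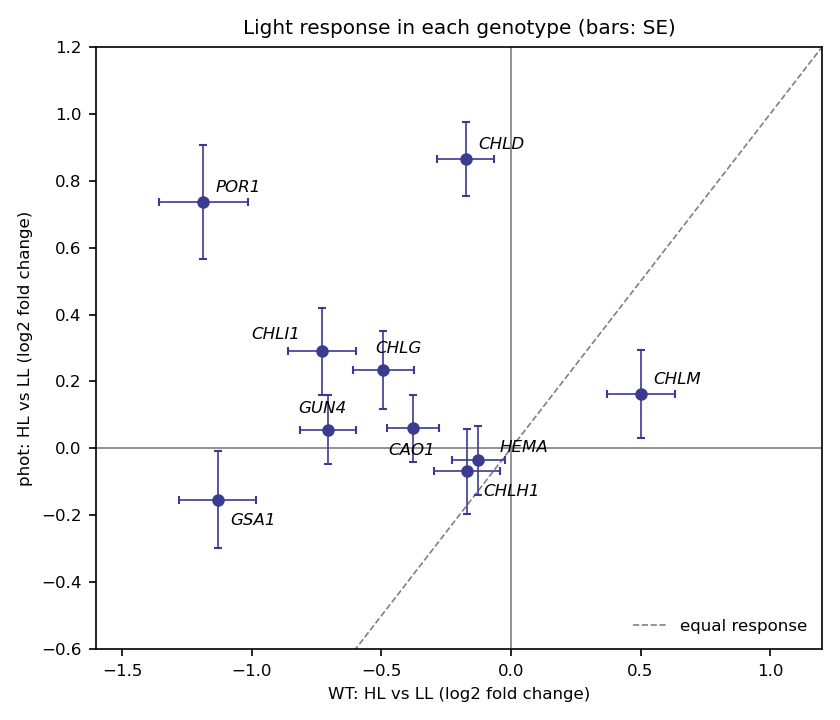
Log2 fold change on HL in WT (horizontal axis) against that in *phot* (vertical axis) for the 10 genes, with bars for the SE and a dashed line where both responses would be equal. *POR1* sits at upper left with -1.19 in WT and 0.74 in *phot*, while *HEMA* and *CHLH1* lie at the line near 0.

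The scaling of the libraries set part of these values. The TMM factors ran from 0.66 to 1.23 and were lower in WT LL (0.66 to 0.86) and WT HL (0.88 to 1.00) than in *phot* LL (1.09 to 1.21) and *phot* HL (1.13 to 1.23). With median-of-ratios factors, upper-quartile factors or library totals in place of TMM, the median of all genes in the WT light comparison moved from 0.05 to -0.08, -0.19 and 0.31, and that of the LL genotype comparison from 0.22 to 0.06, 0.28 and 0.79. Among genes that passed, the share higher in *phot* in LL was 61.2% with TMM and 52.2%, 64.1% and 81.4% with the others. In HL it was 51.9%, and 48.0%, 61.0% and 67.4%. The share higher on HL in WT was 52.6%, and 46.1%, 41.4% and 65.0%. The share with a more positive response in *phot* was 45.3%, and 51.6%, 53.8% and 28.8%.

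A change of scaling shifts all genes nearly alike, so the values are also given relative to the median gene, where the scaling largely cancels by construction. In the LL genotype comparison *CHLH1* stood 1.67 above the median gene on the log2 scale (1.65 to 1.68 over the 4 scalings), *GUN4* 1.36, *HEMA* 1.11, *POR1* 1.09 and *CAO1* 0.62. *GSA1* and *CHLG* stood only 0.24 and 0.08 above it, and *CHLD*, *CHLM* and *CHLI1* stood at -0.18, -0.26 and -0.27. In HL, *POR1* stood 3.19 above the median gene, the other 8 higher members 0.93 to 2.29 above it, and *CHLM* at -0.42.

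For the light response in WT, the values relative to the median gene were -1.23 for *POR1*, -1.18 for *GSA1*, -0.78 for *CHLI1*, -0.75 for *GUN4*, -0.54 for *CHLG*, -0.42 for *CAO1* and 0.46 for *CHLM*. Those of *CHLD*, *CHLH1* and *HEMA* were -0.22, -0.22 and -0.17. These 3 passed or missed the threshold with the scaling: *CHLD* and *HEMA* passed under 11 of 21 other settings and *CHLH1* under 12, in each case lower in HL, whereas library totals placed all 3 slightly above 0 and left *CAO1* (-0.12) and *CHLG* (-0.21) short of the threshold. With 1 library left out, *HEMA* passed without WT LL C, *phot* LL A or C, WT HL A or any *phot* HL library (-0.38 to -0.24), *CHLH1* without any of these or WT HL B (-0.39 to -0.34), and *CHLD* without *phot* LL A or C, WT HL A or B or any *phot* HL library (-0.39 to -0.35). Relative to the median gene, leaving out 1 library kept the value of *HEMA* between -0.25 and -0.11, that of *CHLH1* between -0.35 and -0.10 and that of *CHLD* between -0.27 and -0.19. In *phot*, *CHLD* and *POR1* rose relative to the median gene by 0.83 and 0.70.

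Likeness of pattern across the 12 libraries is described by Pearson's r of log2 CPM, without a test, since the libraries share 4 groups. *HEMA* and *CHLH1* had r = 0.997 and were each other's closest of 14250 other genes. *GUN4* and *CAO1* had r = 0.989. *CHLM* had r = -0.41 with the mean profile of the 10 members, itself included, while the other 9 had r from 0.82 to 0.97. With the group means removed, *HEMA* and *CHLH1* had r = 0.78 within groups, and *HEMA* then ranked 246 among the other genes by likeness to *CHLH1*. The genes outside the pathway list with the profile closest to the members' mean were Cre06.g269050 (r = 0.988), Cre10.g420350 (0.987) and Cre06.g251900 (0.982), for which no annotation was used.

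Light-harvesting antenna genes, whose proteins bind the chlorophyll, were compared as a list of 12 taken from the genes the study followed for photoprotection. On HL in WT, 11 fell and *LHCB7* rose, where 35.1% of all tested genes were lower and 38.9% higher. The list median was -2.89, against -0.44 for the biosynthesis genes and 0.05 for all genes, with the steepest fall in *LHCBM4* (-5.54). On HL in *phot*, 3 rose, 3 fell and 6 did not pass, where 58.9% of all genes passed. The list median was -0.09, against 0.03 over all genes. In LL all 12 were higher in *phot* (median 1.77), where 44.3% of all genes were higher and the all-gene median was 0.22. In HL 11 were higher (median 5.52, up to 6.83 for *LHCBM7*) and *LHCB7* was lower (-0.39). There 38.1% of all genes were higher and 35.4% lower, with a median of 0.05. With upper-quartile factors or library totals 11 of the 12 passed in HL, where 10586 and 10170 of the 14251 tested genes passed. On HL in *phot* the other settings gave 5 to 8. Over the 3 other scalings, 7268 to 8369 of all tested genes passed there. The difference between both lists was not tested. Several *LHCBM* genes are near-identical copies, so the split of reads among them is uncertain.

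In the RefSeq annotation of the version 5.5 assembly, no other annotated gene overlapped any of the 10 genes. *HEMA* and *CHLH1*, the pair of most similar pattern, lie on chromosome 7 at 4202521 to 4206092 and 1676902 to 1683972, far apart. *POR1* lies on chromosome 1 at 2635337 to 2638506, as does *CAO1* at 6081229 to 6085440. *GUN4* and *CHLD* lie on chromosome 5, at 971441 to 974184 and 1830301 to 1836438, *CHLI1* and *CHLG* on chromosome 6, at 8333800 to 8337913 and 6769949 to 6773844, *GSA1* on chromosome 3 at 2272727 to 2276164 and *CHLM* on chromosome 12 at 3240181 to 3243608.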

How the data were processed

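Total RNA from *C. reinhardtii* cultures was made into stranded TruSeq mRNA libraries. The authors aligned reads to Phytozome assembly version 5 with STAR (version 2.5.3a in the submitters' processing notes) and counted them per gene with HTSeq in reverse-stranded mode, whose version is not given in the sources used here. The deposited values are raw counts per gene, not normalized. All 12 columns were used and 0 were left out. Column names give the group but not the replicate number, so the letters A, B and C follow the order of columns and are names only. The libraries were taken as the separate biological replicates of the labels. Within each group the counts of libraries differed by more than sampling noise, with no pair alike. The chi-square per degree of freedom between 2 libraries of a group ran from 20.6 to 67.7 in WT and from 7.7 to 23.8 in *phot*. It was highest for WT HL A with B (67.7), then for WT LL B with C (54.9). WT LL C also had the lowest TMM factor, 0.66.

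Genes above 1 CPM in at least 4 libraries were kept, the filter of the study's methods. Fits used edgeR 4.0.16 in R 4.3.3 (TMM factors, quasi-likelihood test, all 12 libraries in 1 fit with 1 coefficient per group, Benjamini-Hochberg adjustment over 14251 genes, threshold 0.05), and the code was tested on simulated data. DESeq2 1.42.0 and limma 3.58.1 with voom were alternatives, as were 3 other scalings, 2 filters, fits on the compared groups alone and leaving out each library. The study itself used limma, DESeq2 and edgeR. Named genes are all 10 members, *PHOT1*, the antenna list drawn from the study, and the 3 other genes of most similar profile. The members and lists were chosen with earlier results of these data known. P-values set the differences between groups against the spread between these libraries. Of 17741 identifiers, 17738 matched RefSeq locus tags. Whether the authors' assembly is identical to version 5.5 was not examined. Other tetrapyrrole genes, and gene sequences, were not analysed here.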

Additional observations from a re-analysis of the deposited data

Results flagged for a closer look

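The following 7 members are listed because their response to HL differed between WT and *phot* by edgeR's quasi-likelihood interaction term. That test alone does not set them apart, since 51.8% of all genes passed it. The difference in log2 fold change, *phot* minus WT, was 1.92 for *POR1*, where the responses were opposite in direction and both passed. It was 1.04 for *CHLD*, 1.02 for *CHLI1* and 0.98 for *GSA1*. It was 0.76 for *GUN4*, 0.73 for *CHLG* and 0.44 for *CAO1*. All 7 were positive, where 23.5% of all genes passed with a more positive response in *phot* and 28.3% with a more negative one. The median over all tested genes was -0.09. The other 3 members did not pass, at 0.09 for *HEMA*, 0.10 for *CHLH1* and -0.34 for *CHLM*. With 1 library left out, the *POR1* difference relative to the median gene stayed between 1.85 and 2.17. That of *CAO1*, the smallest of the 7, stayed between 0.46 and 0.62. Not set against the median gene, the *CAO1* difference missed the threshold without WT HL library C (0.41) and with library totals (0.19).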

How the results depend on the processing

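No paired analysis was possible because the columns carry no replicate numbers, so the planned replicate block was not run. The number of members past the threshold was 7 for HL vs LL in WT (5 with library totals, 10 with median-of-ratios factors or DESeq2), 7 for *phot* vs WT in LL (5 to 10), 10 in HL (9 to 10) and 7 for the interaction (6 to 7). For HL vs LL in *phot* it was 2, 3 with library totals, from 2 to 4 when 1 library was left out, and 4 without both WT LL library C and WT HL library A, a setting chosen after seeing the data. The number of all 14251 tested genes past the threshold moved too. It was 10536 on HL in WT (10163 with library totals, 10625 with median-of-ratios factors) and 8399 on HL in *phot* (7268 with library totals). For *phot* vs WT in LL it was 10305 (9964 to 11770 over the 3 other scalings). In HL it was 10470 (10170 to 10586), and for the interaction 7382 (7107 to 7328). With limma-voom no member changed direction or side of the threshold.

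All reversed log2 values belonged to members that had not passed. Library totals gave 0.13 for *HEMA*, 0.076 for *CHLH1* and 0.094 for *CHLD* on HL in WT, 0.53 for *CHLI1* and 0.54 for *CHLM* in the LL genotype comparison, where both passed, as did *CHLD* at 0.61 without a reversal, and -0.15 for *HEMA* and -0.13 for *CHLH1* in the interaction. They also took *CAO1* (0.19) below and *CHLM* (-0.59) past the threshold in the interaction, *CHLI1* (0.31) past it on HL in *phot*, and *CAO1* (-0.12) and *CHLG* (-0.21) below it on HL in WT. Upper-quartile factors gave -0.060 for *GUN4* and -0.056 for *CAO1* on HL in *phot*, and 0.016 for *CHLI1* and 0.022 for *CHLM* in LL. *CHLD* in LL was -0.12 with median-of-ratios factors and DESeq2, -0.10 with no filter and -0.14 with the compared groups alone. With 10 CPM required in 3 libraries, *CHLI1* in LL was 0.013 and *CHLM* 0.019. Without both libraries named above they were 0.024 and 0.0013.

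Leaving out 1 library, the ranges that crossed 0 were -0.11 to 0.0077 for *HEMA*, -0.076 to 0.13 for *GUN4* and -0.032 to 0.099 for *CAO1* on HL in *phot*, -0.15 to 0.049 for *CHLD*, -0.23 to 0.025 for *CHLI1* and -0.22 to 0.0016 for *CHLM* in LL, and -0.015 to 0.30 for *CHLH1* in the interaction. TMM scales to 1 reference library, which was WT HL A with all libraries and another one in 8 of the 12 fits with 1 left out. It was *phot* LL B without *phot* LL A or C, WT HL A or B, or any *phot* HL library. Of these fits, those without a *phot* library moved *HEMA*, *CHLH1* and *CHLD* on HL in WT past the threshold. Those without an HL library took *GSA1* and *CHLG* in the LL genotype comparison below it. In neither case was the library left out part of the comparison. Over the 12 fits with 1 library left out, the median of all genes ran from -0.16 to 0.05 on HL in WT and from 0.04 to 0.23 in the LL genotype comparison. *HEMA*, *CHLH1*, *GUN4*, *POR1* and *CAO1* were higher in *phot* in LL under all 21 other settings. For members of low spread, such as *CHLG* in *phot* HL, counting error is not small beside it, and 3 libraries per group limit the precision.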
